A study of Rattus norvegicus with 23 samples.

Results

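Immediate early response genes were followed in the heart apex of rats that had received a kidney transplant. The set held 10 genes of 26405 in the count files, chosen by identifier: Fos, Fosb, Jun, Junb, Atf3, Egr1, Egr2, Nr4a1, Myc and Dusp1, all of which were present in the files and passed the filter on low counts. The choice used no measured value, but was made with earlier results of these data known.

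Kidneys of Lewis rats, an inbred strain, were grafted between diseased and healthy animals in every combination, and hearts were collected 6 weeks after transplantation. The name of a group gives the donor before the hyphen and the recipient after it. Kidneys from donors with chronic kidney disease (CKD) went to recipients with CKD (CD-CR, 6 rats), kidneys from healthy donors went to recipients with CKD (HD-CR, 5 rats), kidneys from donors with CKD went to healthy rats (CD-HR, 6 rats), and in HD-HR (6 rats) neither animal had CKD. Each rat gave 1 RNA-seq library. Age and sex are not given in the labels used here. CKD was produced by coagulating renal artery branches on both sides, then hastened with the nitric oxide synthase inhibitor L-NNA (200 mg/L in the drinking water) and chow with 6% NaCl. Both were stopped when proteinuria reached 200 mg per 24 h, and rats entered the transplantation at 100 mg per 24 h without them. Effects of ablation, L-NNA, salt and renal failure on the heart cannot be told apart. All 4 groups shared the surgery: a left kidney in the orthotopic position, 30 min each of cold and warm ischemia of the graft, and removal of the right native kidney 10 to 14 days later, so healthy recipients of a healthy kidney were also operated animals. Hearts were perfused with saline before the apex was frozen.

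Immediate early genes are switched on within minutes of a stimulus, without new protein synthesis, by transcription factors already present in the cell. MAP kinases, calcium and cyclic AMP act on serum response factor and its partners, and on CREB. In heart muscle the transcripts appear after stretch, adrenergic stimulation, ischemia and surgical handling, and they decay quickly, so a single time point shows the level at collection. Most of the genes encode transcription factors: Fos, Fosb, Jun and Junb pair into AP-1, Atf3 belongs to the related ATF family, Egr1 and Egr2 are zinc finger proteins, Nr4a1 is an orphan nuclear receptor and Myc binds E-boxes. Dusp1 encodes a phosphatase that switches MAP kinases off again.

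The libraries held 7391929 to 12444980 counts in genes. CD-CR1 and HD-CR2 stood apart by a low share of counts in the 10 most abundant genes (48.8% and 51.4%, against 55.03 to 68.6% in the other libraries), and CD-HR5 by 10.7 non-unique alignments per counted read, against 0.390 to 3.67 elsewhere. The animal names in the deposited files begin with 12 or 13, a prefix with no meaning given in the sources used here. All 12 healthy recipients have the prefix 13, and of the CKD recipients 9 have 12 and only CD-CR5 and HD-CR5 have 13, so the prefix and the recipient's disease are nearly confounded. Bulk RNA does not tell apart fewer cells of a type and less RNA per cell.

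CKD of the recipient was the comparison in which members passed the test. Averaged over both kinds of donor kidney, Nr4a1 and Dusp1 were higher in CKD recipients, by 1.76-fold and 1.38-fold, and the other 8 genes did not pass. The 2 genes called make up 2 of 10 members, with 0 called lower, beside a background of 12.8% of 11568 genes called in either direction, 6.09% called higher and 6.73% called lower. At an unadjusted p under 0.05, 5 of the 10 were higher (Dusp1, Nr4a1, Myc, Fosb and Jun) and 0 lower, beside 13.8% of all genes higher and 15.7% lower. The median log2 fold change of the 10 was 0.35, beside -0.01 over all genes tested, and 9 of the 10 had a positive value. Of the 2 called, 1 is a transcription factor and 1 a phosphatase that opposes the kinases upstream of the group.

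**Figure D1:**
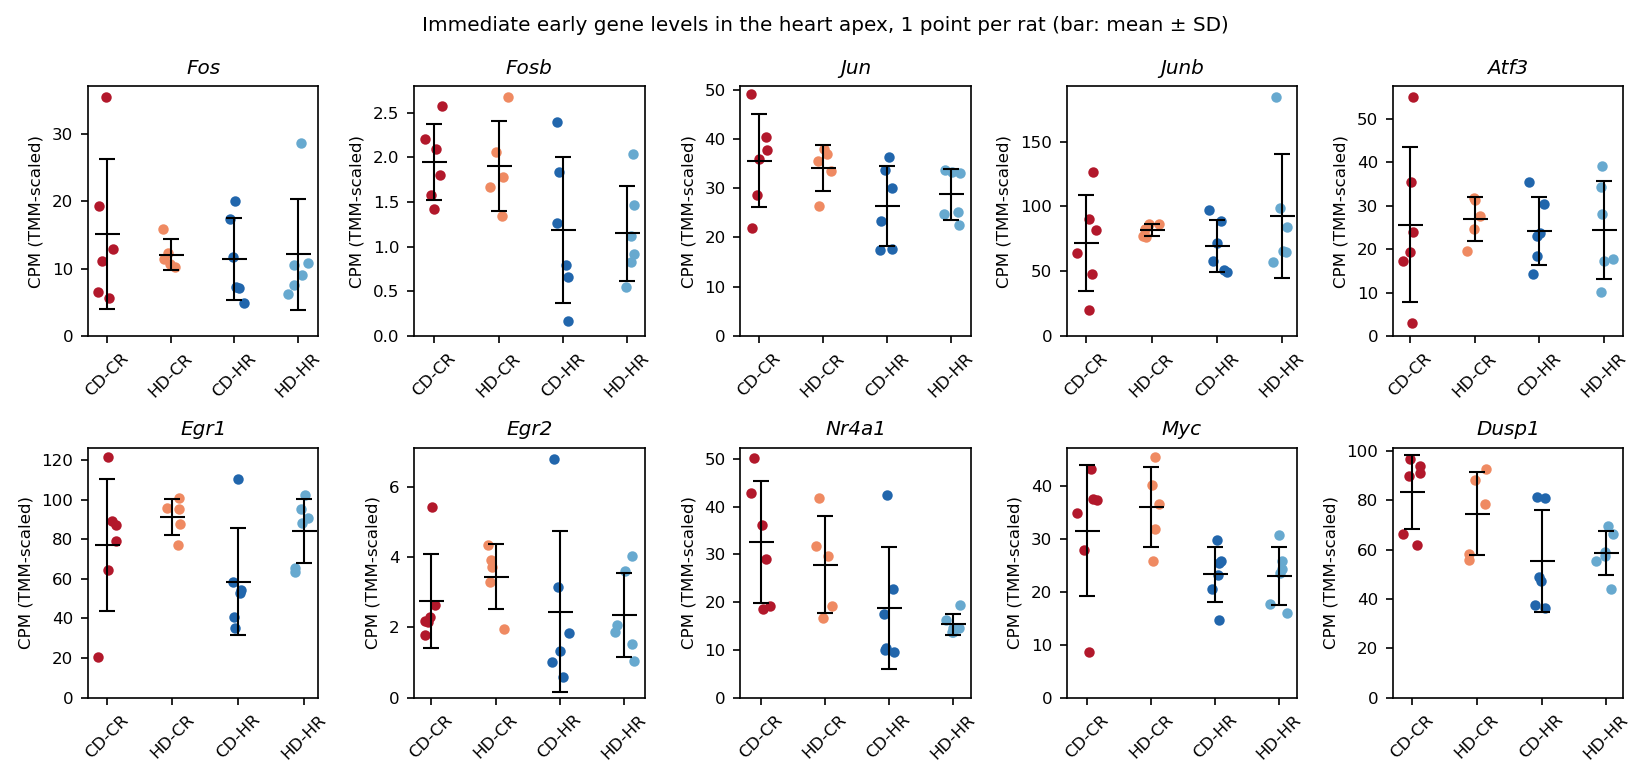
Levels of the 10 immediate early genes in CPM (y axis, from 0) in the 4 groups (x axis), with 1 point per rat and the mean ± SD as a bar. The means of Nr4a1, Dusp1, Fosb, Jun, Myc, Egr2 and Atf3 were higher in both CKD-recipient groups than in both healthy-recipient groups. The points of these groups overlapped for each gene, and those of Junb and Atf3 throughout.

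Nr4a1 (ENSRNOG00000007607), the orphan nuclear receptor, is shown first because it passed with the larger fold. Levels are in CPM, the count divided by the TMM-scaled library size, and do not account for gene length. In CD-CR its level ran from 18.5 CPM through a median of 32.6 to 50.2 CPM. In HD-CR the 5 hearts had 16.6, 19.2, 29.7, 31.8 and 41.8 CPM. In CD-HR it ran from 9.46 through a median of 14.0 to 42.5 CPM, and in HD-HR from 13.7 through 14.6 to 19.4 CPM. All 11 CKD recipients lay above the median of the healthy recipients (14.6 CPM), and 8 of 12 healthy recipients lay below the lowest CKD recipient. CD-HR1 was the exception among healthy recipients, at 42.5 CPM. The means were 30.5 ± 11.4 CPM in CKD recipients (SD, n = 11) and 17.1 ± 8.91 CPM in healthy recipients (n = 12). On the log2 scale the difference was 0.82 ± 0.24 (SE, adjusted p = 0.0335 by edgeR's quasi-likelihood test with Benjamini-Hochberg adjustment). With a CKD donor kidney it was 0.78 ± 0.34 (CD-CR against CD-HR, adjusted p = 0.231 by edgeR) and with a healthy one 0.85 ± 0.35 (HD-CR against HD-HR, adjusted p = 0.213 by edgeR), neither of which passed.

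Dusp1 (ENSRNOG00000003977), the MAP kinase phosphatase, showed a smaller difference with less spread. Its level in CD-CR ran from 62.0 CPM through a median of 90.4 to 96.6 CPM. The 5 HD-CR hearts had 56.0, 58.3, 78.5, 88.2 and 92.6 CPM. It ran from 36.2 through 48.2 to 81.2 CPM in CD-HR and from 44.0 through 58.2 to 69.7 CPM in HD-HR. Of the 11 CKD recipients 10 lay above the median of the healthy recipients (56.5 CPM) and 6 above the highest of them. The means were 79.4 ± 15.7 CPM in CKD recipients (SD, n = 11) and 57.1 ± 15.2 CPM in healthy recipients (n = 12), a log2 fold change of 0.47 ± 0.14 (SE, adjusted p = 0.0284 by edgeR). With a CKD donor kidney the log2 fold change was 0.59 ± 0.19 (adjusted p = 0.108 by edgeR) and with a healthy one 0.35 ± 0.20 (adjusted p = 0.356 by edgeR).

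The promoters of these genes are printed because both genes were higher in the same comparison. The sequences are from RefSeq, build GRCr8, cover 250 bases before and 50 after the table's start, and read 5′ to 3′ along the gene. That of Nr4a1 is chr7:134259888-134260187 and that of Dusp1 chr10:17184603-17184902, both on the plus strand. The Nr4a1 window lies inside the annotated gene (134247153 to 134268044), so its start is not the gene's first base. The Dusp1 window spans the annotated start of its gene, 17184853. Capitals mark CGTCA and its reverse complement TGACG, the half-site of the cyclic AMP response element (CRE).
Nr4a1: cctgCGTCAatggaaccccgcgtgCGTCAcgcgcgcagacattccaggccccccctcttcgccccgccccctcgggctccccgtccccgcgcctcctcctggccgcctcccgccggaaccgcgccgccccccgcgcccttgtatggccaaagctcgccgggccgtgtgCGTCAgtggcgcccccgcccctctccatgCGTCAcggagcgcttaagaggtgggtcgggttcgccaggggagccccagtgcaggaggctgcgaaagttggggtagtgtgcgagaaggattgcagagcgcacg
Dusp1: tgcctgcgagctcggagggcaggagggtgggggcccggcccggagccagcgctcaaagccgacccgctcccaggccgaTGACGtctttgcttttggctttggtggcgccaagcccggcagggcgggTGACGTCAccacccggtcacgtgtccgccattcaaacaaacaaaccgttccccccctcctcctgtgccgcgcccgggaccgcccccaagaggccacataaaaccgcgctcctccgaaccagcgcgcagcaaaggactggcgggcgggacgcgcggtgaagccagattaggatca
The half-site stood 4 times in the Nr4a1 window and 3 times in that of Dusp1, where a pair of them overlaps in 1 full CRE, TGACGTCA. It was also in the windows of Egr1 (2 times), Egr2 (1 time) and Junb (1 time), and so in 5 of the 6 windows held, all but that of Fosb. Of 33469 promoter windows of the same length, 1.11% held 3 or more half-sites, 21.2% at least 1, and 1.83% a full CRE, counting both strands. The half-site was chosen for this count after the sequences had been read. The table held windows for 6 of the 10 genes (Fosb, Junb, Egr1, Egr2, Nr4a1 and Dusp1). The CArG box, the site of serum response factor, stood 2 times in the window of Egr1 and 1 time in that of Egr2, and in 1.64% of all windows. TATAAA was found in the windows of Fosb and Junb and in 14.2% of all, and neither TGANTCA (AP-1, 7.33% of all) nor GCGTGGGCG (EGR, 0.544% of all) was found in the 6.

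Both calls rested on several libraries and did not pass once the prefix was taken into account. With the prefix as a covariate the log2 fold changes were 0.94 ± 0.43 for Nr4a1 (adjusted p = 0.239 by edgeR) and 0.65 ± 0.24 for Dusp1 (adjusted p = 0.149). Within prefix 13, which sets CD-CR5 and HD-CR5 against the 12 healthy recipients, they were 0.97 ± 0.42 (adjusted p = 0.253) and 0.68 ± 0.25 (adjusted p = 0.182). The log2 fold changes had larger errors in both settings. Both depend on the same CKD recipients of prefix 13, CD-CR5 and HD-CR5, so they are not separate checks. The prefix and the recipient's disease cannot be told apart here. Nr4a1 did not pass without CD-CR2, CD-CR6, HD-CR1, HD-CR4, HD-CR5, CD-HR4, CD-HR5, CD-HR6, HD-HR2 or HD-HR5, with log2 fold changes of 0.72 to 0.83 and adjusted p of 0.0508 to 0.0751 by edgeR, and Dusp1 did not pass without HD-CR1, HD-CR4, HD-CR5 or CD-HR4 (0.42 to 0.46, adjusted p 0.0536 to 0.0584). With the replicate block Nr4a1 was at 0.86 (adjusted p = 0.0582) and Dusp1 passed at 0.47 (adjusted p = 0.0419). With no filter on low counts Nr4a1 did not pass (0.81, adjusted p = 0.0600 by edgeR) and Dusp1 did (0.46, adjusted p = 0.0418).

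Quality measures of the libraries moved with the recipient's disease and with some members. Non-unique alignments per counted read had a median log2 of 0.26 in CKD recipients and 1.21 in healthy recipients, and reads in no feature a median of 14.0% in CKD recipients and 16.1% in healthy recipients. The relations below were not centred on group means, so differences between the groups enter them and their permutation p. Across the 23 libraries, the share of reads in no feature had a Pearson r of -0.57 and a Spearman rho of -0.59 with Nr4a1 (permutation p = 0.00334 and 0.00366, adjusted over 40 relations 0.0167 and 0.0352), with r = -0.69 within prefix 12, -0.35 within prefix 13 and -0.39 without the 2 most distant libraries. For Dusp1 the same r was -0.28 and rho -0.27 (permutation p = 0.192 and 0.217, adjusted 0.284 and 0.347), with 0.09 within prefix 12, -0.25 within prefix 13 and -0.07 without the 2 most distant libraries. The share of reads in no feature also moved with Fosb, Jun and Myc. Their r was -0.65, -0.61 and -0.61 (adjusted permutation p = 0.0105, 0.0134 and 0.0167). Their rho was -0.50, -0.45 and -0.72 (adjusted permutation p = 0.0800, 0.114 and 0.0068). Without the 2 most distant libraries r was -0.34, -0.35 and -0.73. Jun also moved with the log2 non-unique ratio (r = -0.58, rho = -0.40, adjusted permutation p = 0.0167 and 0.177), with r = -0.27 without the 2 most distant libraries. In a fit that also held the non-unique ratio, Nr4a1 was at 0.61 ± 0.28 (adjusted p = 0.175 by edgeR) and Dusp1 at 0.48 ± 0.16 (adjusted p = 0.0638). Fosb moved with the log2 non-unique ratio (r = -0.70, rho = -0.49, permutation p = 0.00026 and 0.0180, adjusted 0.00347 and 0.0800), with -0.44 within prefix 12, -0.70 within prefix 13 and -0.43 without the 2 most distant libraries. Myc moved with the share of counts in the 10 leading genes (r = 0.70, rho = 0.59, permutation p = 0.00017 and 0.00348, adjusted 0.0034 and 0.0352), with 0.76 within prefix 12, 0.68 within prefix 13 and 0.72 without the 2 most distant libraries. Atf3 did so too (r = 0.76, rho = 0.57, permutation p = 4e-05 and 0.00528, adjusted 0.0016 and 0.0352), with 0.80 within prefix 12, 0.72 within prefix 13 and 0.69 without the 2 most distant libraries. In a fit that held the share of the 10 leading genes, Nr4a1 was at 0.70 ± 0.26 and did not pass (adjusted p = 0.0787 by edgeR), while Dusp1 passed at 0.47 ± 0.14 (adjusted p = 0.0324).

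Among the AP-1 subunits, Fosb and Jun had the clearest differences by recipient, and neither passed. Fosb (ENSRNOG00000046667), a low-count gene with 1 to 27 counts per library, had 1.43 to 2.58 CPM in CD-CR (median 1.95) and 1.35, 1.66, 1.78, 2.06 and 2.67 CPM in HD-CR, against 0.166 to 2.39 CPM in CD-HR (median 1.03) and 0.547 to 2.03 CPM in HD-HR (median 1.02). All 11 CKD recipients lay above the median of the healthy recipients, and 8 of the 12 healthy recipients lay below the lowest CKD recipient. CKD recipients differed from healthy recipients by 0.68 ± 0.25 on the log2 scale (SE, adjusted p = 0.0726 by edgeR). It passed without CD-HR1, CD-HR3 or HD-HR6 (0.76 to 0.84, adjusted p 0.0249 to 0.0499 by edgeR), by DESeq2 (0.69, adjusted p = 0.0410) and by limma-voom (0.82, adjusted p = 0.0348). In the fit that held the non-unique ratio it was at 0.40 ± 0.27 (adjusted p = 0.343 by edgeR).

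Jun (ENSRNOG00000026293), the common partner of the Fos proteins, averaged 35.6 ± 9.48 CPM in CD-CR (SD, n = 6), 34.0 ± 4.65 in HD-CR (n = 5), 26.4 ± 8.08 in CD-HR (n = 6) and 28.7 ± 5.14 in HD-HR (n = 6). Of the 11 CKD recipients 5 exceeded the highest healthy recipient (36.2 CPM), while CD-CR6 lay low at 21.8 CPM. The log2 fold change was 0.34 ± 0.13 (adjusted p = 0.0935 by edgeR), and it passed without CD-CR6 or CD-HR2 (0.39 each, adjusted p = 0.0422 and 0.0486 by edgeR). In the fit that held the non-unique ratio it was at 0.18 ± 0.15 (adjusted p = 0.452 by edgeR).

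Fos and Junb, the other AP-1 members, did not pass. Fos (ENSRNOG00000008015) ran from 5.59 through 12.1 to 35.6 CPM in CD-CR, stood at 10.3, 10.7, 11.4, 12.3 and 15.9 CPM in HD-CR, and ran from 4.97 through 9.47 to 20.03 CPM in CD-HR and from 6.31 through 9.80 to 28.6 CPM in HD-HR. Single hearts reached the highest levels, CD-CR6 at 35.6 and HD-HR1 at 28.6 CPM, and the groups overlapped widely. The recipient log2 fold change of Fos was 0.20 ± 0.32 (adjusted p = 0.725 by edgeR). Junb (ENSRNOG00000042838) ran from 19.9 through 72.8 to 126.8 CPM in CD-CR, from 76.1 through 82.2 to 86.4 CPM in HD-CR, from 49.7 through 65.2 to 97.3 CPM in CD-HR and from 57.4 through 74.9 to 184.7 CPM in HD-HR. Its highest library was HD-HR1 and its lowest CD-CR1, and its log2 fold change by recipient was -0.07 ± 0.24 (adjusted p = 0.878 by edgeR).

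Myc (ENSRNOG00000004500), the growth-associated E-box factor, had the third smallest p. It ran from 8.61 through 36.0 to 43.2 CPM in CD-CR and stood at 25.8, 31.7, 36.5, 40.2 and 45.4 CPM in HD-CR, against 14.7 through 24.3 to 29.8 CPM in CD-HR and 15.99 through 23.9 to 30.7 CPM in HD-HR. Of the 11 CKD recipients 8 lay above the highest healthy recipient, and CD-CR1 lay below all of them at 8.61 CPM. The log2 fold change was 0.54 ± 0.19 (adjusted p = 0.0570 by edgeR). Without CD-CR1 it was 0.65 and passed (adjusted p = 0.00235 by edgeR), as it did without HD-CR1, CD-HR1 or HD-HR1 and without CD-CR1, HD-CR2 and CD-HR5 together (0.68, adjusted p = 0.00610), a setting in which Dusp1 no longer passed (0.48, adjusted p = 0.0545) and Nr4a1 did (0.91, adjusted p = 0.0317). Myc also passed by DESeq2 (0.55, adjusted p = 0.0242). It did not pass by limma-voom (0.48, adjusted p = 0.111), in the fit that included the prefix (0.75 ± 0.33, adjusted p = 0.2175 by edgeR), in the fit with the non-unique ratio (0.42 ± 0.22, adjusted p = 0.232 by edgeR) or in that with the share of the 10 leading genes (0.38 ± 0.15, adjusted p = 0.0890 by edgeR).

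Atf3, Egr1 and Egr2 did not pass in the recipient comparison. Atf3 (ENSRNOG00000003745), a stress-induced factor of the ATF family, averaged 25.7 ± 17.8 CPM in CD-CR (SD, n = 6), 26.99 ± 5.09 in HD-CR (n = 5), 24.2 ± 7.72 in CD-HR (n = 6) and 24.4 ± 11.2 in HD-HR (n = 6), a log2 fold change of 0.12 ± 0.31 (adjusted p = 0.832 by edgeR). CD-CR held both the lowest library for Atf3, CD-CR1 at 3.07 CPM, and the highest, CD-CR2 at 54.9 CPM. Egr2 (ENSRNOG00000000640), with 5 to 74 counts per library, averaged 2.75 ± 1.35 CPM in CD-CR, 3.45 ± 0.917 in HD-CR, 2.45 ± 2.30 in CD-HR and 2.35 ± 1.20 in HD-HR (SD), a log2 fold change of 0.36 ± 0.31 (adjusted p = 0.467 by edgeR). For Egr1 (ENSRNOG00000019422) the recipient log2 fold change was 0.25 ± 0.21 (adjusted p = 0.446 by edgeR).

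**Figure D2:**
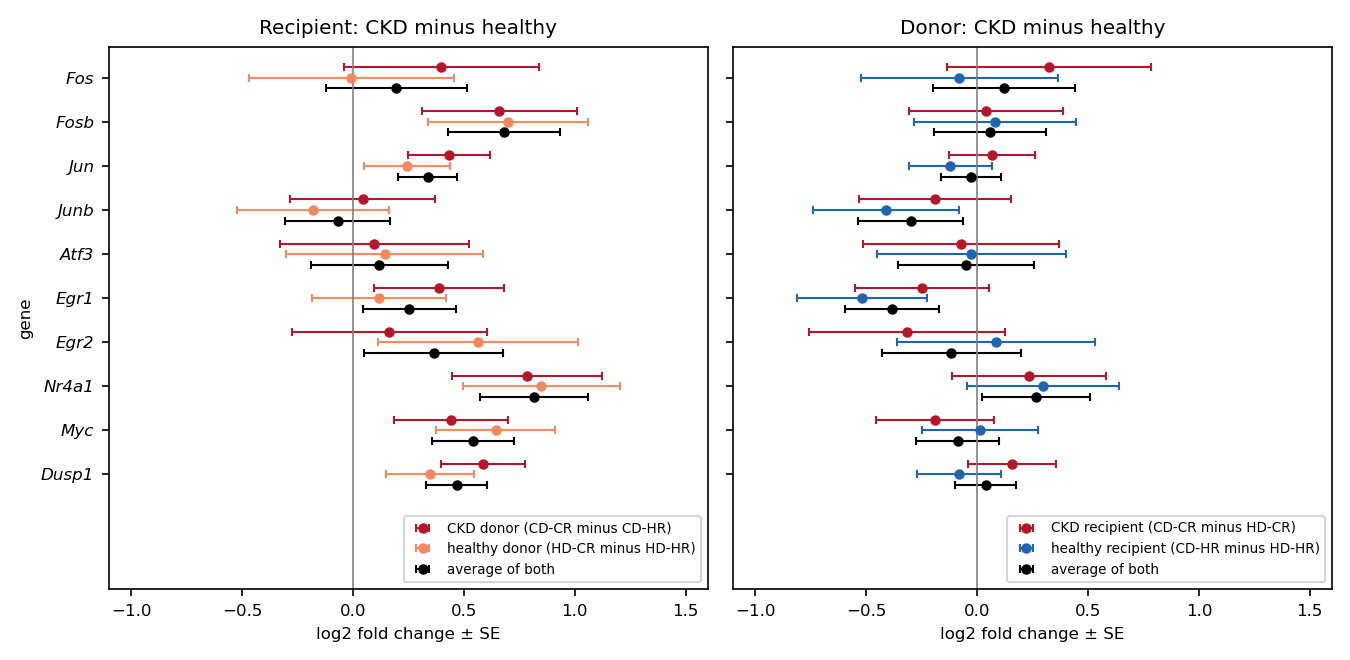
Log2 fold changes ± SE (x axis) of the 10 genes (y axis) by edgeR, for CKD against healthy recipients on the left and CKD against healthy donor kidneys on the right, for each kind of partner and averaged. On the left the averages run from -0.07 (Junb) to 0.82 (Nr4a1), and on the right from -0.38 (Egr1) to 0.27 (Nr4a1).

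The recipient comparisons within each kind of donor kidney called 0 members. With a CKD donor kidney (CD-CR against CD-HR, 1.56% of all genes called), edgeR, DESeq2 and limma-voom called 0, and 3 members, Dusp1, Jun and Nr4a1, were higher at an unadjusted p under 0.05 (0 lower, beside 9.43% of all genes higher and 8.41% lower). With a healthy donor kidney (HD-CR against HD-HR, 0.614% called), all 3 tools called 0, and Myc and Nr4a1 were higher at an unadjusted p under 0.05 (0 lower, beside 7.62% of all genes higher and 10.5% lower). These comparisons share no library, but they share 1 fit with its estimate of the spread. In both, the prefix is nearly confounded with the recipient's disease. With a CKD donor kidney 10 of 10 members had a positive log2 fold change (median 0.41, beside -0.0001 over all genes). With a healthy one it was 8 of 10 (median 0.29, beside -0.01 over all genes). The members are correlated with each other, so these counts are a description.

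Without CD-HR1, the healthy recipient with high Nr4a1 and Egr2, the comparison with a CKD donor kidney called Nr4a1 (log2 fold change 1.21, adjusted p = 0.0257 by edgeR) and Dusp1 (0.73, adjusted p = 0.0332). Over all genes, the calls of that comparison rose in this setting from 181 of 11568 to 359 of 11539. With only HD-CR and HD-HR in the fit, Nr4a1 (adjusted p = 0.0369 by edgeR) and Myc (adjusted p = 0.0497) were called. There the calls over all genes rose from 71 of 11568 to 306 of 11214. With the prefix as a covariate, both comparisons called 0 members, beside 0 genes with a CKD donor kidney and 3 with a healthy one.

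Hearts with CKD on both sides (CD-CR) against neither (HD-HR) gave 0 members called by edgeR and limma-voom and 1, Nr4a1, by DESeq2, where edgeR called 3.65% of all genes. Nr4a1 differed by 2.12-fold (log2 1.08 ± 0.34, adjusted p = 0.0830 by edgeR) and Dusp1 by 1.42-fold (0.51 ± 0.19, adjusted p = 0.140), and with Fosb (0.74 ± 0.35, adjusted p = 0.254) these were the 3 members at an unadjusted p under 0.05 (0 lower, beside 9.77% of all genes higher and 8.79% lower). For Nr4a1 4 of 6 CD-CR hearts lay above the highest HD-HR heart (19.4 CPM), and the other two at 18.5 and 19.2 CPM. Nr4a1 passed without CD-HR1 (1.08, adjusted p = 0.0255 by edgeR) and Myc without CD-CR1 (0.67, adjusted p = 0.0438). CD-HR1 belongs to neither of these groups and enters only through the fit shared by the 4 groups. The log2 fold change of Nr4a1 was 1.08 with and without it. This comparison shares libraries with the preceding ones.

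CKD of the donor kidney called 0 members in any of its comparisons. Averaged over recipients, edgeR called 0 of 10 members (0% of all genes), with 0 at an unadjusted p under 0.05 (12.8% of all genes), and DESeq2 and limma-voom called 0 members. The counts of members were also 0 by all of these in healthy recipients (CD-HR against HD-HR, 0% of all genes by edgeR, 7.6% at an unadjusted p under 0.05) and in CKD recipients (CD-CR against HD-CR, 0.0259% and 8.31%). The median log2 fold change of the 10 genes was -0.04 averaged over recipients, beside 0.01 over all genes, with 4 positive and 6 negative values.

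Egr1, the zinc finger factor downstream of MAP kinases, had the smallest p for the donor. It ran from 20.3 through 83.2 to 121.2 CPM in CD-CR and stood at 77.3, 87.8, 95.3, 95.9 and 100.6 CPM in HD-CR. In healthy recipients it ran from 34.9 through 53.4 to 110.3 CPM in CD-HR and from 63.5 through 89.4 to 102.5 CPM in HD-HR. In CD-HR 5 of 6 hearts lay below the lowest HD-HR heart, and CD-HR1 above the highest. The log2 fold change was -0.38 ± 0.21 averaged over recipients (adjusted p = 0.464 by edgeR) and -0.52 ± 0.29 in healthy recipients (adjusted p = 0.719), or -0.80 without CD-HR1 (adjusted p = 0.482).

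The test of the donor by recipient interaction called 0 of the 10 by edgeR, DESeq2 and limma-voom (0.00864% of all genes by edgeR), with 0 at an unadjusted p under 0.05 (3.26% of all genes) and log2 values from -0.40 to 0.40. The interaction was -0.06 ± 0.49 (SE) for Nr4a1 and 0.24 ± 0.28 for Dusp1 on the log2 scale.

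The members varied widely between rats of the same group. The within-group SD of log2 CPM was 0.85 for Atf3, 0.76 for Fos, 0.75 for Egr2, 0.63 for Fosb, 0.61 for Junb, 0.59 for Nr4a1, 0.57 for Egr1, 0.53 for Myc, 0.36 for Dusp1 and 0.35 for Jun, beside a median of 0.30 over all genes tested. Among genes within 0.5 log2 units of the same level, 99.6% had a smaller SD than Atf3, 99.2% than Fos, 98.2% than Nr4a1 and 88.0% than Dusp1. The lowest of these shares was 83.5%, for Fosb. From lowest to highest library the level spanned 17.9-fold for Atf3, 16.1-fold for Fosb, 11.8-fold for Egr2 and 2.67-fold for Dusp1.

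The spread was not alike in the 4 groups. HD-CR had the smallest SD of log2 CPM for 7 of the 10 genes, and the largest for 0, whereas among all genes tested it was smallest in 35.8% and largest in 19.4%. Junb had an SD of 0.93 in CD-CR and 0.09 in HD-CR, and Egr1 0.90 in CD-CR and 0.15 in HD-CR. CD-CR and CD-HR each had the largest SD for 5 genes, while among all genes these were the largest in 32.3% and 31.2%. The difference in spread was not tested.

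**Figure D3:**
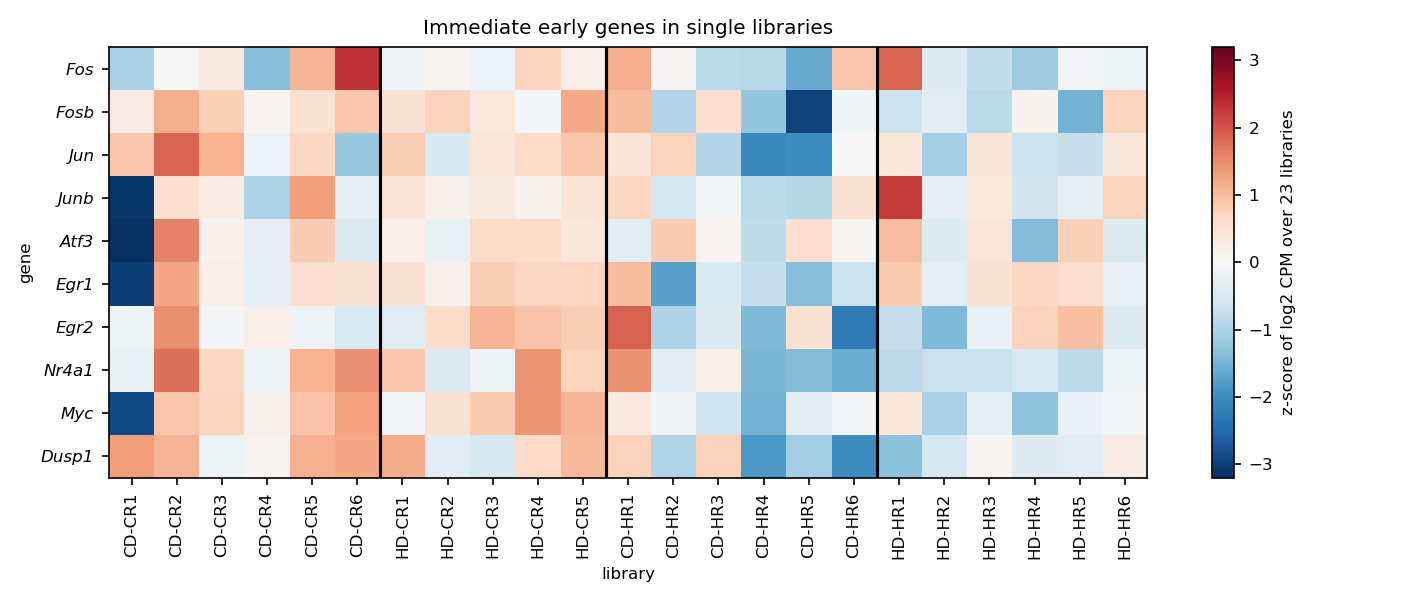
Heat map of the z-score of log2 CPM over the 23 libraries (color) for the 10 genes (rows) in single libraries (columns), with lines between groups. CD-CR1 is the lowest library for Junb, Atf3, Egr1 and Myc and the highest for Dusp1, and CD-HR4, CD-HR5, CD-HR6 and HD-HR2 are below the mean for most genes.

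Single libraries set much of this spread. CD-CR1 was the lowest of the 23 for 4 genes, at 19.9 CPM for Junb, 3.07 for Atf3, 20.3 for Egr1 and 8.61 for Myc, yet the highest for Dusp1 at 96.6 CPM. CD-CR2 was the highest for 4 genes, Jun at 49.1, Atf3 at 54.9, Egr1 at 121.2 and Nr4a1 at 50.2 CPM. CD-HR6 was the lowest for 3, Egr2, Nr4a1 and Dusp1, at 0.577, 9.46 and 36.2 CPM. The mean z-score over the 10 genes was 1.16 in CD-CR2 and 0.84 in CD-HR1 at the upper end and -1.28 in CD-HR4, -1.14 in CD-CR1 and -1.06 in CD-HR5 at the lower end.

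Many members were high in the same hearts. Of 45 pairs, 41 had a positive Pearson correlation of log2 CPM over the 23 libraries (median 0.38), and 15 passed a permutation test adjusted over the 45 pairs, 9 of them also by rank. The same shares among pairs of other genes were not computed, so these counts do not set the members apart from other genes. Nr4a1 and Dusp1, the genes called in the recipient comparison, formed the closest pair (r = 0.83, rho = 0.82, permutation p = 2e-05 for both, adjusted 0.0009 and 0.000675). Their r was 0.56 within prefix 12, 0.89 within prefix 13, 0.74 once centred on group means and 0.80 without CD-CR2 and CD-CR6, the libraries farthest from the median of Nr4a1. Fosb followed Nr4a1 (r = 0.71, rho = 0.80, permutation p = 7e-05 and 3e-05, adjusted 0.00158 and 0.000675). Its r with Nr4a1 was 0.40 within prefix 12, 0.75 within prefix 13 and 0.57 once centred on group means. It was 0.71 without CD-HR5 and HD-HR5, the libraries farthest from the median of Fosb. Fos followed Junb (r = 0.61, rho = 0.63, permutation p = 0.00185 and 0.00171, adjusted 0.00832 and 0.0110), with 0.43 within prefix 12, 0.84 within prefix 13 and 0.68 without the 2 most distant libraries.

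Without CD-CR1 the median r of the 45 pairs rose from 0.38 to 0.48, but some correlations were lower. That of Junb with Egr1 was 0.74 (rho = 0.59, permutation p = 0.00016 and 0.00306, adjusted 0.0024 and 0.0172) and 0.53 without CD-CR1, where it still passed (adjusted p = 0.0296 by permutation). It was also 0.53 without CD-CR1 and HD-HR1, with 0.96 within prefix 12, which holds CD-CR1, and 0.58 within prefix 13. That of Atf3 with Egr1 was 0.57 (rho = 0.40, permutation p = 0.0110 and 0.0580, adjusted 0.0329 and 0.102) and 0.16 without CD-CR1, where it did not pass (adjusted p = 0.524 by permutation), with 0.97 within prefix 12 and -0.06 within prefix 13. Atf3 with Dusp1 had the lowest value of the 45 (r = -0.13, rho = -0.10, permutation p = 0.574 and 0.643, adjusted 0.618 and 0.673), at 0.14 without CD-CR1. Without CD-CR1, 23 pairs passed in place of 15, and with values centred on group means 11 passed.

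**Figure D4:**
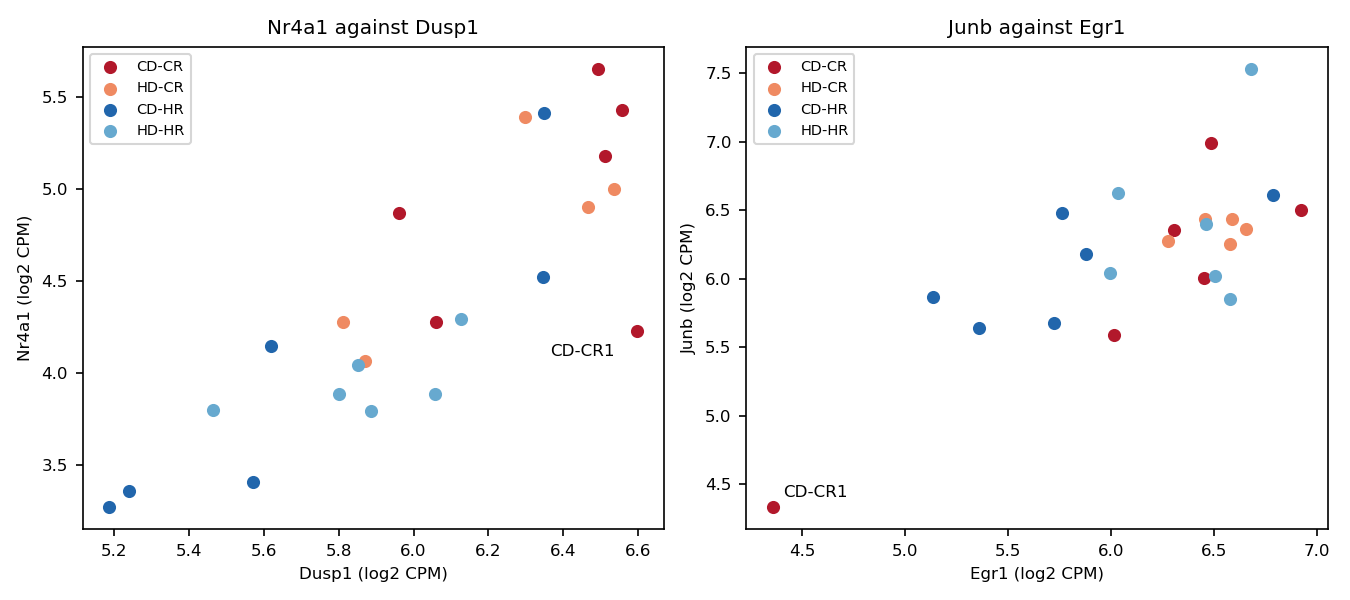
Log2 CPM of Nr4a1 against Dusp1 (left) and of Junb against Egr1 (right), 1 point per library, colored by group. On the left the points follow one trend (r = 0.83) with CD-CR1 below it, and on the right CD-CR1 lies far from the other points at the lower left.

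Of the genes outside the set, those whose log2 CPM correlated most highly with the mean z-score of the 10 members were ENSRNOG00000000827 (r = 0.89) and ENSRNOG00000047811 (r = 0.86). They were picked as the highest of 11558 genes over the same 23 libraries, so these values are a description. Centred on group means, the values were 0.94 and 0.84.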

How the data were processed

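RNA of the heart apex from 23 rats was isolated with Trizol, selected on poly(A) beads and made into directional libraries, per the labels' protocols. The authors deposited unnormalized read counts, whole numbers per Ensembl rat gene, in 1 file per library. STAR 2.4.2a, Picard and HTSeq 0.6.1p1 with build Rnor_5.0 are named, per the submitters' processing notes. The strand setting and annotation release are unknown here, and overlapping genes may share reads. The 5 summary lines of each file (reads in no feature made up 10.6 to 21.5%) entered neither library sizes nor tests.

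The files carry identifiers only. The symbols of the 10 genes came with the list of identifiers that defines them, and the RefSeq table (GRCr8) held 0 Ensembl rat identifiers, so the lists of other early genes, upstream regulators and cell type markers, heart markers included, were not analysed here. Members and lists were chosen with earlier results of these data known. Genes named beside the members were the 2 with the highest correlation with their mean z-score.

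Groups and replicate numbers came from the titles. Nothing says more of the rats' independence, so p-values measure the spread between these libraries. No 2 libraries of a group agreed within sampling noise (lowest chi-square per degree of freedom 8.38, genes with at least 10 counts). Genes were filtered with filterByExpr (11568 kept), scaled by TMM and tested in 1 fit of all 23 libraries with edgeR 4.0.16 in R 4.3.3 (robust glmQLFit, glmQLFTest). P-values were adjusted by Benjamini-Hochberg over all genes tested, with a threshold of 0.05. An SE is the log2 fold change divided by the square root of F. Correlations used log2 CPM (prior count 2) and 100000 permutations, two-sided. Alternatives were DESeq2 1.42.0 and limma-voom 3.58.1, other scaling and filtering, covariates, a replicate block, subsets by prefix and leaving out libraries. The fitting code was tested on simulated data. No source used here mentions molecular identifiers, and precision was judged from the spread between rats.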

Additional observations from a re-analysis of the deposited data

Results flagged for a closer look

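In 40 groups of 5 or 6 libraries (10 genes in 4 groups), 4 held a library far from the others by Dixon's criterion on log2 CPM. Chance alone would flag about 1 of 20. The levels below are in CPM, a scale on which the flags need not be the same. Egr1 in CD-CR1 was at 20.3 CPM, against 64.5 to 121.2 CPM in the other CD-CR libraries. Myc in CD-CR1 was at 8.61 CPM, against 27.9 to 43.2 CPM in the others. Egr2 in CD-CR2 was at 5.44 CPM, against 1.78 to 2.63 CPM in the others. Fos in HD-HR1 was at 28.6 CPM, against 6.31 to 10.8 CPM in the other HD-HR libraries.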

How the results depend on the processing

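For CKD recipients averaged over donors, the count of members called was 2 and became 4 by DESeq2, 1 with no filter on low counts, with top-10 share (counts in the 10 leading genes) as a covariate or with the replicate block (Nr4a1 was lost in these 3 settings), and 0 with the prefix as a covariate, in prefix 13 alone or with the non-unique alignment ratio as a covariate. It ran from 0 to 4 when each library was left out in turn. With a healthy donor kidney the count of 0 became 2 with the 2 groups alone. It ran from 0 to 2 over left-out libraries for recipients of a CKD donor kidney and from 0 to 1 for CKD in both against neither, where DESeq2 and the 2 groups alone gave 1. The other 4 comparisons stayed at 0 in each setting run. For single genes with an unadjusted p under 0.1, 595 values stayed on their side of the threshold, 21 passed where the reported one did not, 24 no longer passed, and 0 changed direction. The pairs of members that passed numbered 15, 11 once centred on group means, and 23 with CD-CR1 left out, a setting chosen after seeing the data, as was leaving out CD-CR1, HD-CR2 and CD-HR5. The causes were not tested.

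Libraries with the same replicate number were not more alike than others. Their deviations from group means correlated from -0.32 to 0.36 over 33 pairs (median -0.04). Those of libraries with different numbers correlated from -0.38 to 0.44 over 165 pairs (median -0.02). These values cannot exclude that some rats were paired. The block moved the counts of all genes called for the averaged recipient comparison from 1483 to 1336.

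Over all genes, that comparison called 6 with the prefix as a covariate, 0 in prefix 13 alone, 973 without the 3 libraries and 860 to 1742 with 1 left out. Its 1483 genes became 1815 by DESeq2, 1200 of 18538 tested with no filter, 1522 with the share covariate and 1041 with the non-unique ratio. The counts of members called thus shifted along with the counts over all genes in several settings, but not in all. With the share covariate, members called fell from 2 to 1 while calls over all genes rose to 1522. By limma-voom 3 members were called (Fosb, Nr4a1 and Dusp1) while calls over all genes fell to 1439. The count of 71 with a healthy donor kidney became 259 by DESeq2, 306 with only its own 2 groups, 44 by limma-voom, 3 and 10 by prefix (covariate, then prefix 13 alone), 111 without the 3, 47 with the share covariate and 5 to 137 with 1 left out. The count of 181 with a CKD donor kidney became 449, 32, 0 and 0 (DESeq2, 2 groups, prefix), 334 and 109 (share, non-unique), 18 without the 3 and 48 to 359. For CKD in both, 422 became 651 by DESeq2, 0 and 0 by prefix, 219 without the 3 and 227 to 514. For the donor averaged over recipients, 0 became 226 by DESeq2, 16 (share), 6 without the 3, 1 with no filter and 0 to 46. In healthy recipients 0 became 11 by DESeq2 and 0 to 1. In CKD recipients 3 became 36 by DESeq2, 5 (share), 7 (2 groups), 12 without the 3, 0 in prefix 13, 4 in prefix 12 alone and 2 to 18. For the interaction, 1 became 2 (DESeq2, share), 0 (block, prefix 13, without the 3) and 0 to 2.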
